A study of Mus musculus with 16 samples.

Results

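The broad fully methylated domains of the mouse oocyte were taken as autosomal 10-kb bins of GRCm38 in which more than 90% of the pooled CpG calls were methylated. A bin counted as measured when each of the 16 libraries had 20 or more calls in it, and 10939 of the 57035 measured bins (19.2%) passed the 90% limit. Adjacent domain bins merged into 6674 domains that together covered 109.39 Mb. The pooled level over all libraries chose the bins, so that a high level in them is a description of the choice and not a finding.

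The calls came from post-bisulfite adapter tagging (PBAT), in which adapters are added after bisulfite conversion so that little DNA is lost, and a cytosine that resists conversion is read as methylated. Every library was 1 pool of metaphase-II (MII) oocytes from F1 hybrid females, with C57BL/6J and CBA/Ca as the parental strains. The 4 IFC libraries held oocytes grown by in vitro follicle culture from preantral follicles of prepubertal females. They are labelled 23 days, but by the study's methods the donors were younger and the follicles then spent several days in culture, with recombinant FSH and at the end recombinant hCG and EGF. The 5 SO libraries held oocytes of superovulated prepubertal females of 23 days, the 4 SOA libraries those of superovulated adults of 10 weeks and the 3 IV libraries those of adults of 10 weeks that ovulated naturally and received no hormones. SO and SOA females received eCG followed by hCG. By the study's methods the dose was lower in the prepubertal SO females than in the adult SOA females, so that dose and age cannot be told apart between them. The labels name no mutation or transgene in any group. Since a pool mixes many oocytes, a level of 90% can mean a few unmethylated oocytes or a few unmethylated CpGs in all of them. Depth ran from 5218053 to 23065411 calls per library, with the 4 IFC libraries at 8231898 or fewer and the 3 IV libraries at 15644144 or more, so that depth and group cannot be fully told apart. IV1 stood apart from the other libraries, with 12.4% methylation in the 19797 bins that were below 10% in the pool, against 3.88% to 7.41% in the other 15 libraries, and results that rest on it are given with and without it. The study suspected that IV1 held some DNA of somatic cells, which was not tested here. Of the maternal imprint controls, 8 of 11 gene starts were methylated, 1 of them over only 5 CpGs, and the region upstream of H19 was not, as described with the imprinted genes.

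In growing oocytes the de novo methyltransferase DNMT3A, together with its cofactor DNMT3L, methylates CpGs mainly across gene bodies that are being transcribed. Transcription brings the histone mark H3K36me3 to those bodies, and the regions between active genes largely stay unmethylated, which gives the oocyte methylome its alternation of long methylated and unmethylated blocks. CpG islands, short stretches dense in CpGs that are unmethylated in most cells, become methylated in oocytes where such a transcript runs across them, and the maternal imprints are set in this way.

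The sequences that follow show what a fully methylated stretch looks like, with every CpG in capitals. They are 300-base stretches of the plus strand of the GRCm38 reference, taken as the stretches with most CpGs, first in each of the 2 longest domains and then among all stretches above 90%, with 10 or more calls in every group and no untranslated exon. The stretch in the longest domain lay at chr14:121271600-121271899 and overlapped an exon of Farp1, and 96.7% of its 182 calls at 17 CpGs were methylated. Of the 2 domains tied at the next length, 160 kb, the one with the higher pooled level was taken. Its stretch, at chr7:130646900-130647199, lay in introns of the oppositely directed genes Fgfr2 and Tacc2, 806 bases from a transcription start of Tacc2, with 95.1% of 185 calls methylated at 18 CpGs.
Farp1 stretch: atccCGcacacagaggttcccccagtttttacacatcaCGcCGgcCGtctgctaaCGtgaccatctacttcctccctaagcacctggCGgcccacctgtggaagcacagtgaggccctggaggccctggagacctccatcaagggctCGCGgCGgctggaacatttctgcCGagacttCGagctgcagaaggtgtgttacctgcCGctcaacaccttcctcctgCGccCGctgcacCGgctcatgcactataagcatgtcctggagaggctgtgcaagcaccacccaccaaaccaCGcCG
Fgfr2 and Tacc2 stretch: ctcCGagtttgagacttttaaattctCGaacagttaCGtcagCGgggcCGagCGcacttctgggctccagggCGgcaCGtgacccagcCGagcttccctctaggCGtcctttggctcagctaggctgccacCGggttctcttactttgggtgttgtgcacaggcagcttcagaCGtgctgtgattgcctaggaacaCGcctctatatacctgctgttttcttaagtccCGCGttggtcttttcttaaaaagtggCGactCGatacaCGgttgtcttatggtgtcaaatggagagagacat
The next stretches were those with most CpGs among the stretches above 90%. The Kdm2b stretch at chr5:122899700-122899999 held 53 CpGs in an intron, 505 bases from a Kdm2b start, and was 95.2% methylated over 250 calls. The Osbp2 stretch at chr11:3762000-3762299 held 51 CpGs in an intron, 11639 bases from the nearest Osbp2 start, and was 97.2% methylated over 213 calls. A stretch of such density would be a CpG island by its sequence, and both were methylated in every group, at 92.1% to 97.3% in Kdm2b and 96.0% to 98.5% in Osbp2.
Kdm2b stretch: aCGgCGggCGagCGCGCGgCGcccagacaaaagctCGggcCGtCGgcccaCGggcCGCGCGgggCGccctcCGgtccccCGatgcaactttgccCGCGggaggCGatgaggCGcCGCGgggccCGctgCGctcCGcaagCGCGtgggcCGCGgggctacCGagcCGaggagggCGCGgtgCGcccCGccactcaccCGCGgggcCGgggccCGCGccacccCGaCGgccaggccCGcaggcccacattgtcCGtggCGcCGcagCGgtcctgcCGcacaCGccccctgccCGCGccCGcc
Osbp2 stretch: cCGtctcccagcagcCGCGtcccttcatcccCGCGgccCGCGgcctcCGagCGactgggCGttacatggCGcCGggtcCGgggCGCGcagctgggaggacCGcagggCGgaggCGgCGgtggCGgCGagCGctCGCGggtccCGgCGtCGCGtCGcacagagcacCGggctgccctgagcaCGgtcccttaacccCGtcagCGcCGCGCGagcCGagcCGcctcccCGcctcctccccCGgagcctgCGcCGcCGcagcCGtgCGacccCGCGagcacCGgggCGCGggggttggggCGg
Of 50514 overlapping 300-base stretches in domain bins that were considered, 47384 were above 90% and 0 were below 20%.

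The level of the measured bins fell into 2 main classes. Below 10% lay 19797 bins (34.7%) and above 90% the 10939 domain bins, while the classes of 10 points between them held 2385 to 5654 bins each. Domain bins ranged from 90.01% to 97.9% with a median of 94.6%, and 4002 of them exceeded 95% but 0 exceeded 98%. The limit of 90% cut through a continuous slope of values. The bins nearest above it lay in H13, Rimkla and Enox1, all at 90.01%, with lowest libraries of 79.6%, 75% and 80%. The bins nearest below it lay in Nek6, Ttc28 and Limk2, at 90%, with lowest libraries of 76.2%, 81.4% and 84.6%, so that the libraries of the 6 bins overlapped.

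**Figure D1:**
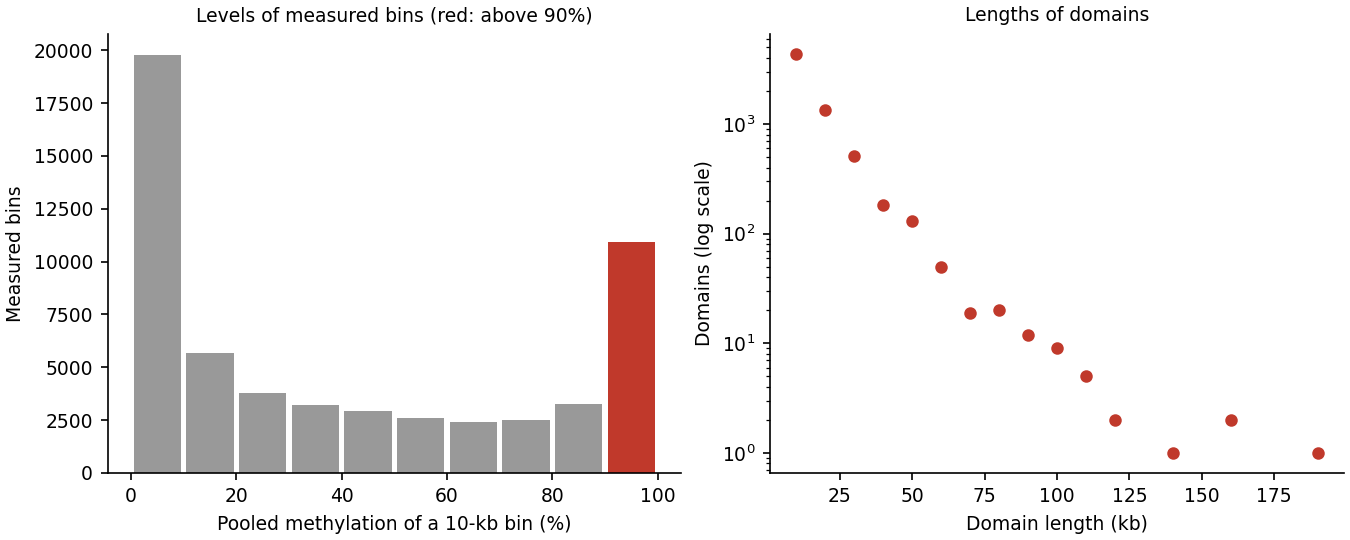
Left, number of measured autosomal 10-kb bins in each class of 10 points of pooled methylation (percent of calls), with the class above 90% in red. Right, number of domains (log axis) against domain length in kb. The classes below 10% (19797 bins) and above 90% (10939 bins) were the fullest, and 4374 of 6674 domains were 1 bin long while the longest reached 190 kb.

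Unmethylated calls in domain bins are given by the measured level of the CpG that carried them. At 10 calls the level of a CpG is set in part by counting error. The classes therefore do not show which CpGs were truly less methylated. Of the 1448364 reference CpGs in domain bins, 612921 had 10 or more pooled calls, and 87.8% of these were at 90% or more. Only 452 CpGs were below 20%. CpGs at 90% or more carried 45.4% of all unmethylated calls, CpGs from 80% to 90%, which were 8.74% of the CpGs, carried 28.3%, and CpGs from 50% to 80%, which were 2.79%, carried 17.9%. CpGs from 20% to 50% carried 7.06% and those below 20% carried 1.31%. A C-to-T difference of the CBA/Ca parent at a CpG is read as unmethylated, and its share was not computed here. When only positions on CpGs of the reference were used, the library means of the domain bins ran from 92.4% to 96.0%, and 11128 bins passed the limit, including 10720 of the 10939.

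Most domains were short, and many of the bins beside them were not measured. Of the 6674 domains, 4374 were 1 bin, 1353 were 2 bins, 695 were 3 to 4 bins, 232 were 5 to 9 bins and 20 were 10 or more bins long. Of the 13348 domain ends, 56.2% met a bin with too few calls, so that the length of a domain with such an end is a lower bound. Unmeasured bins held a median of 62 CpGs against 128 in measured bins, and 15.02% of them would have been above 90% on the calls they had. When gaps of up to 2 unmeasured bins were bridged whatever their level, the longest runs were 240 kb at Zfhx3, where the 2 bridged bins were at 93.6%, and 240 kb at Farp1 and Stk24, where the 3 bridged bins were at 85.8%.

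The longest domain spanned 190 kb at chr14:121160000-121349999 over the 3′ part of Farp1 and the neighbouring kinase gene Stk24. Its level was 96.4%, 95.5%, 95.5% and 93.0% in IFC1 to IFC4, 95.3%, 94.7%, 94.9%, 92.8% and 95.03% in SO1 to SO5, 96.4%, 94.8%, 94.9% and 93.9% in SOA1 to SOA4, and 91.4%, 94.8% and 94.4% in IV1 to IV3. The groups overlapped, with IV1 lowest and all 19 bins between 90.3% and 96.4% in the pool. The domain ended at a measured bin of 65.6% on its right, while its left neighbour was not measured.

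The other 9 longest domains also lay in gene bodies. A domain of 160 kb lay wholly in Tacc2, where 17 of 18 measured bins were domain bins. The annotated extent of Fgfr2, which encodes a fibroblast growth factor receptor, also covered it. Another domain of 160 kb lay in part of Dst, which encodes a cytoskeletal linker. A domain of 140 kb lay in the kinase gene Taok3. Domains of 120 kb lay in Trrap, a subunit of histone acetyltransferase complexes, with the ubiquitin ligase gene Smurf1, and in Ctif. Domains of 110 kb lay in the transcription factor gene Zfhx3, the cadherin-family gene Fat1, Osbpl10 with Stt3b, and Trio. The pooled level of the 10 domains ran from 93.5% in Ctif to 95.5% in Zfhx3, and the group means from 92.6% in IV at Ctif to 96.9% in IFC at Fat1. The SD over the libraries of a group in these domains was between 0.276 and 2.44 points. Of the 10, Fat1 had the sharpest measured edge, since the bin to its left was at 1.48% while the first domain bin began directly beside it.

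Domain bins were gene bodies far more than the measured bins as a whole. Protein-coding genes covered 89.1% of the bases of domain bins, 59.0% of all measured bins and 41.1% of the bins below 10%. Only 806 domain bins (7.37%) touched no coding gene, against 29.7% of all measured bins, and 469 (4.29%) touched no annotated gene of any kind, against 20.5%. Transcription starts of coding genes were rarer in domain bins, at 12.4% of bins against 25.1%. The median number of CpGs per bin, 127 against 128, and the GC content, 47.0% against 46.9%, were close. Very CpG-dense windows of 1 kb were rarer in domain bins, which were 19.2% of the measured bins. They held 485 of the 15933 windows with 40 or more CpGs and 30 or more pooled calls, a count that the 90% limit in part fixes. Exons of coding genes covered 11.6% of the bases of domain bins against 8.31%. By chromosome, domain bins made up between 14.7% of the measured bins on chromosome 3 and 25.1% on chromosome 5.

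Single domains mostly lay within 1 gene. Of the 6674 domains, 4587 (68.7%) were wholly inside a single coding gene, 832 (12.5%) touched several genes and 589 (8.83%) touched none. The share without a coding gene fell from 10.8% of 1-bin domains to 1.72% of domains of 5 to 9 bins and 0 of the 20 domains of 10 or more bins. Domain bins occurred in 4689 of the 15071 coding genes with a measured bin (31.1%), and at least 50% of the measured bins were domain bins in 3211 of them (21.3%). Among the 2321 genes with 5 or more measured bins, 778 (33.5%) reached that share, but only 8 were domain bins throughout.

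The genes with most domain bins held 21 to 36 of them. Zfhx3 (ENSMUSG00000038872) had 36 of its 49 measured bins above 90%, Agap1 34 of 40, Gse1 25 of 36, and Foxp1, a forkhead transcription factor, 24 of 35. Tiam1, an activator of the GTPase Rac, had 24 of 34, Mast4 23 of 32, Auts2 22 of 36, Dst 22 of 30, Osbpl10 22 of 24, and Arid1b, a subunit of the SWI/SNF chromatin remodelling complex, 21 of 28, with Atxn1 (21 of 27) and Foxn3 (21 of 33) at the same number. A gene with more measured bins had more chances to hold domain bins, and the share ran from 61.1% in Auts2 to 91.7% in Osbpl10.

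Along the gene, methylation began downstream of the start and ended soon after the annotated end. The profile was taken over 746 genes of 40 kb or longer and at least 5 measured bins with at least 50% of them domain bins. The 1-kb window at the start held a mean of 66.96 CpGs and had a level of 5.86%, while the level was 41.8% at 20 kb upstream. Downstream of the start it was 13.8% after 1 kb, 38.9% after 2 kb, 66.8% after 4 kb, 77.5% after 10 kb and 87.9% after 36 kb. Near the 3′ end it was 92.8% at 20 kb before the end, 87.3% at the end, 66.03% after 2 kb and 45.2% after 8 kb. The 4 groups lay between 5.49% and 6.12% at the start and between 65.6% and 68.5% at 4 kb after it. Since these genes were kept for their domain bins in the pool of all groups, the high level within them and the likeness of the groups there follow largely from the choice and were not tested.

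**Figure D2:**
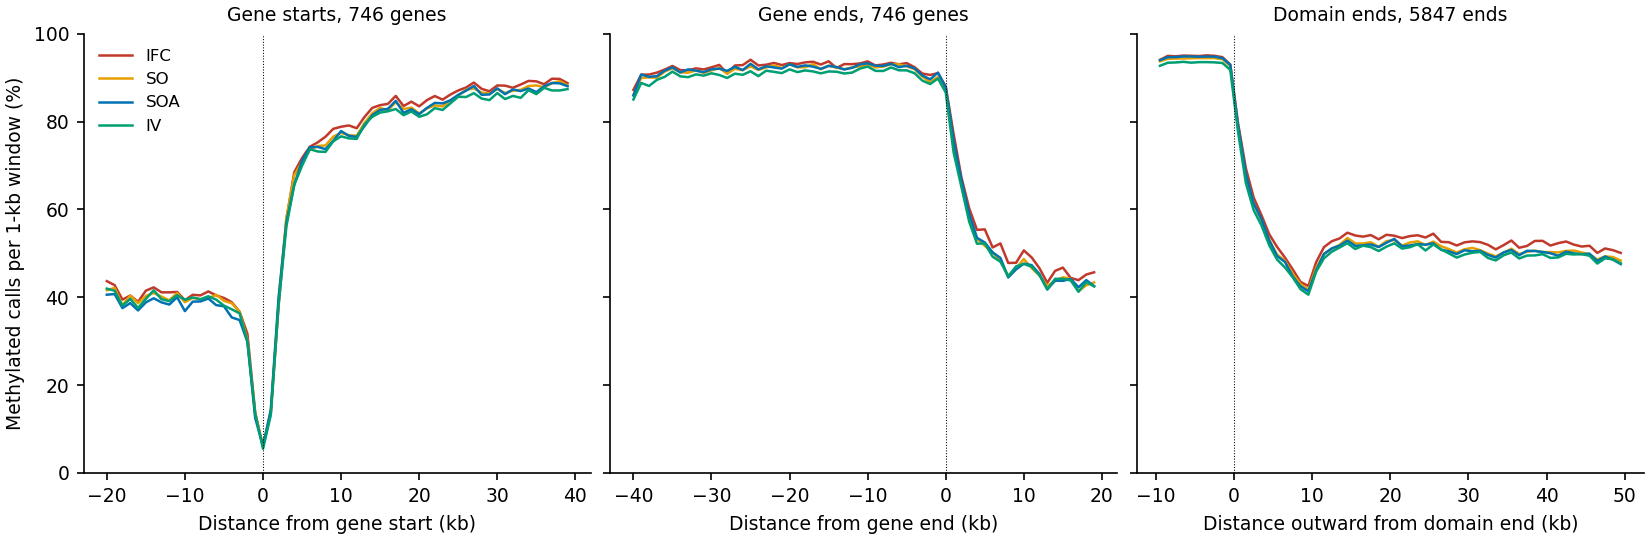
Mean methylation (percent of calls) by group in 1-kb windows around the starts and ends of 746 genes and outward from 5847 domain ends with a measured neighbouring bin. The level was 5.86% at the gene start, 87.9% at 36 kb into the gene and 45.2% at 8 kb past its end, and the lines of the 4 groups ran within a few points of one another; the low point at 10 kb outside a domain follows from the grid, because the neighbouring bin was 90% or less by the rule.

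At domain ends with a measured neighbour, the mean level fell across the neighbouring bin. The ends are set by the 10-kb grid, so that sharp steps at any place in that bin also give such a mean. A gradual decline and sharp steps can therefore not be told apart here. In the last window inside the domain it was 92.5%, and it was 78.5% in the first window outside, 67.5% in the second and 52.8% at 4.5 kb. The neighbouring bins had a median of 60.4%. Of these 5847 bins, 182 (3.11%) were below 10%, 34.7% were from 10% to 50%, 38.0% from 50% to 80% and 24.2% from 80% to 90%. A neighbouring bin below 10%, as at Fat1, was therefore rare on this grid, which does not show how sharp the edges were.

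CpG-dense sequence inside the domains was as methylated as the rest. Domain bins held 15197 windows of 1 kb with 20 or more CpGs and 30 or more pooled calls, of which 15112 (99.4%) were above 80% and 0 were below 20%. Windows with 40 or more CpGs are mostly promoter islands, and in all measured bins 88.3% of the 15933 such windows were below 20%, with a mean level of 10.3%. The 485 such windows in domain bins had a mean level of 94.3%. Because a bin with a large unmethylated island could hardly pass the 90% limit, this contrast is in part fixed by the rule.

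Transcription starts were found within the fully methylated bins as well. Of the dense windows, 645 held the start of a coding transcript, and 642 of them were above 80%. The window of a start of Kdm2b, a histone demethylase that binds CpG islands, held 113 CpGs and was at 96.7% over 389 calls. Starts with more than 100 CpGs and levels from 95.3% to 96.3% belonged to Grb10, an imprinted adaptor gene, Tcf15, a mesodermal transcription factor, Hsf5 and BC034090. Starts with some residual unmethylated calls were those of Maz (123 CpGs, 89.1%), Auts2 (106 CpGs, 89.6%) and Lrch1 (104 CpGs, 88.6%). The windows at Kdm2b, Auts2 and Grb10 lay inside the gene, away from both of its annotated ends. Many genes have alternative starts, and which of them an oocyte uses cannot be read from these data.

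Host genes of maternal imprints were mostly in domains. Of 20 such genes with a measured bin, 18 touched a domain bin and 15 (75%) had at least 50% of their bins in domains, where 31.1% and 21.3% of all measured coding genes did; the list was chosen with earlier results known and was not tested. The 20 are not separate loci, since Commd1 and Zrsr1 share a single bin, Mcts2, Nap1l5 and Kcnq1ot1 lie within H13, Herc3 and Kcnq1, and Airn overlaps Igf2r, so that some bins count more than once. Igf2r, the receptor that clears IGF2, had 6 of 7 bins, Kcnq1, a potassium channel gene, 7 of 9, and Plagl1, a zinc finger gene, 4 of 4. Within 500 bp of the annotated starts, levels were 98.9% at Snrpn, where the window held 5 CpGs and 93 calls, 97.3% at Kcnq1ot1, 96.1% at Airn, 95.01% at Zrsr1, 94.4% at Nap1l5, 94.1% at Mcts2, 94.0% at Peg3 and 93.9% at Peg10. They were 28.2% at Mest, 1.81% at Plagl1 and 1.10% at Inpp5f. For all 11 the annotated start farthest upstream was used, and the imprinted start can lie elsewhere in the gene, at Snrpn too. The control of the opposite kind, from 2 to 4 kb upstream of H19, which is methylated on the paternal copy, was at 1.76% over 682 calls, and at 1.23% to 3.01% in the 4 groups.

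Genes with roles in the oocyte itself are given beside the 21.3% of all measured coding genes that had at least 50% of their bins in domains, without a test. Of 23 oocyte and maternal-effect genes with a measured bin, 2 (8.70%) reached that share: Kit, the receptor of the KIT ligand on oocytes, with 7 of 9 bins, and Figla, an oocyte transcription factor, with 1 of 2. Zp3, which encodes a zona pellucida protein, had a single measured bin at 54.6% to 68.8% in the group means, and Gdf9, an oocyte growth factor, 1 at 15.8% to 18.7%. These genes are short, so that a 10-kb bin averages them with their surroundings. Of 182 measured genes of housekeeping families (ribosomal, proteasome, chaperonin and the like), 18 (9.89%) reached it, among them Eif4g3, a translation initiation factor, with 12 of 16 bins. Of 1624 genes of tissue-restricted families only 135 had a measured bin, so that most of them were not assessed. Of these 135, 2 (1.48%) reached it, Krt20 and Krt80, both keratin genes.

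Regulators of DNA and histone methylation, listed together with Ctcf and the deacetylase genes Hdac1 and Hdac2, were mixed. Of 25 such genes with a measured bin, 17 touched a domain bin and 7 (28.0%) reached that share, where 21.3% of all genes did. Kdm2b had all 10 of its bins in domains and Tet3, the dioxygenase of the zygote, 9 of 10. Dnmt1, the maintenance methyltransferase, had 4 of 6, Kdm1b, a demethylase of H3K4, 3 of 4, and Dnmt3b 3 of 4, while Ehmt1 and Nsd3 had all of their 1 and 2 bins. Tet1 had 0 of 7 bins, with group means of 2.81% to 6.35%, and Kmt2a, a writer of H3K4 methylation, 0 of 8. Of 16 long genes that the study had picked for differences between its groups in these libraries, 0 reached it and 4 touched a domain bin. Genes picked for such differences can hardly exceed 90% in the pool, so that nothing is read from this count.

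The level of each library in the domain bins is given as a description, since the pooled level of these libraries chose the bins. The mean level of the 10939 bins was 95.2%, 95.2%, 95.2% and 93.5% in IFC1 to IFC4, 95.4%, 95.1%, 94.7%, 93.0% and 94.4% in SO1 to SO5, 95.1%, 94.8%, 95.5% and 94.2% in SOA1 to SOA4, and 91.3%, 94.0% and 94.5% in IV1 to IV3. Group means were 94.8% ± 0.856 in IFC (SD, n = 4), 94.5% ± 0.916 in SO (n = 5), 94.9% ± 0.538 in SOA (n = 4) and 93.3% ± 1.69 in IV (n = 3). IV1, SO4 and IFC4 were the lowest, in this order, and the groups overlapped. IV1 and SO4 were also the libraries with the highest levels in the bins below 10%, at 12.4% and 7.41%, with IFC4 next at 6.17%. Their part in the results was not tested beyond leaving each library out. The spread over libraries beyond counting error, given as a ratio that is about 1 when counting alone sets it, was 1.34 in domain bins against 2.25 in all measured bins. A pooled level above 90% leaves little room for libraries to differ, so that nothing is read from this ratio.

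**Figure D3:**
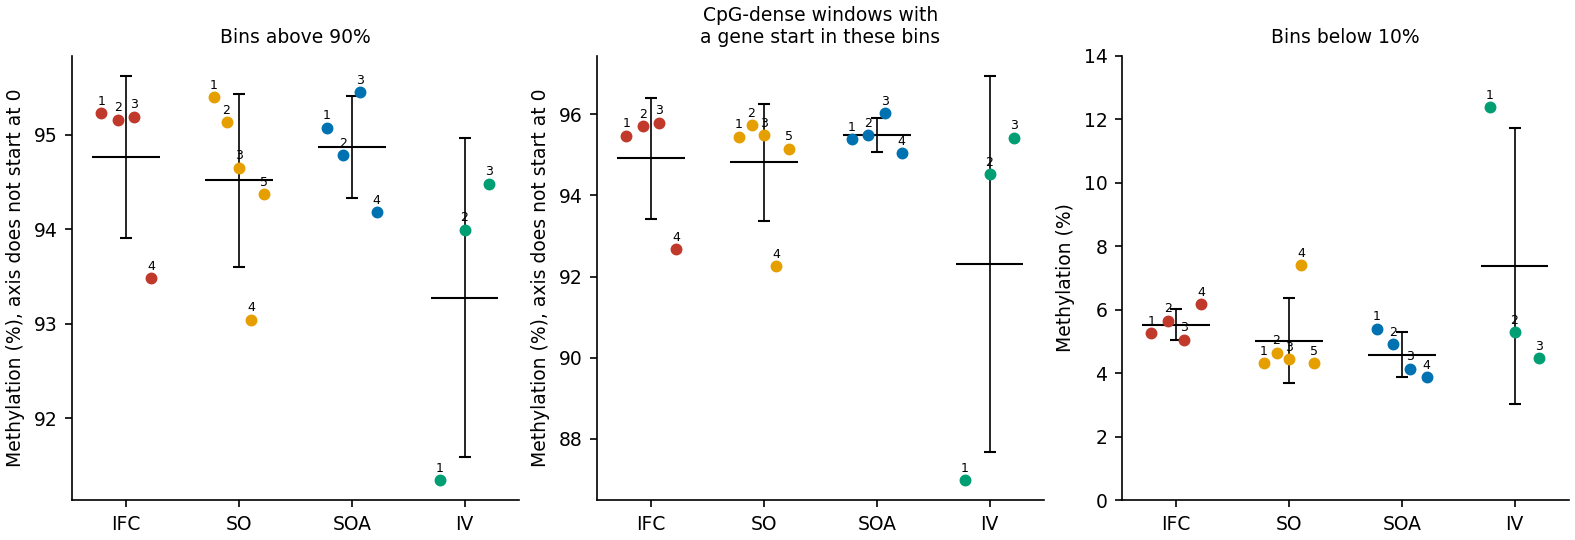
Methylation of each library (percent of calls, points numbered by replicate, with the group mean and SD) in bins above 90%, in CpG-dense windows with a coding start inside these bins, and in bins below 10%. IV1 was lowest in the first (91.3%) and in the second (87.0%) and highest in the third (12.4%), followed by SO4 at 93.0%, 92.2% and 7.41%.

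To compare groups without letting them choose the bins, the bins were picked on the 2 groups outside each comparison, and the libraries' means were tested by a two-sided exact permutation test. Nothing in the labels shows that the pools of a group came from separate females, so that the p-values measure the spread between pools. In the 10911 bins picked on SOA and IV, IFC was at 94.4% ± 0.916 and SO at 94.3% ± 0.977, which differed by 0.0996 points (p = 0.873, exact permutation). SO and SOA, in 10639 bins, were at 94.5% ± 0.927 and 94.9% ± 0.546 (p = 0.548, exact permutation). SOA and IV, in 11095 bins, were at 94.6% ± 0.547 and 93.0% ± 1.68, 1.64 points apart (p = 0.0857, exact permutation), and IFC and SOA at 94.7% ± 0.893 and 94.9% ± 0.540 (p = 0.800, exact permutation). The smallest p that these exact tests allow is 0.00794 for 5 against 4 libraries and 0.0286 for the others, and after adjustment over 8 tests the p-values were 0.343 or more in all of them.

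The CpG-dense windows within those bins gave the same picture. IFC exceeded SO by 0.0473 points (exact permutation p = 0.897), SO was below SOA by 0.279 points (exact p = 0.675), SOA exceeded IV by 1.502 points (exact p = 0.0571) and IFC was below SOA by 0.0840 points (exact p = 0.971). The difference between SOA and IV rested largely on IV1, and without it SOA exceeded IV by 0.680 points in the bins and by 0.523 points in the dense windows. In none of the comparisons did the difference pass 0.05 in these tests.

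At CpG-dense starts inside the domains, IV1 was lower than in the dense windows without a start, and so to a lesser degree were IFC4 and SO4. Over the 645 windows its level was 87.0%, against 94.5% in IV2, 95.4% in IV3 and 92.2% to 96.0% in the other 13 libraries, while over dense windows without a start it was 92.3%. IFC4 was at 92.7% at starts and 94.3% in the windows without one, and SO4 at 92.2% and 93.9%. At the start of Ube2f, a conjugating enzyme of NEDD8, IV1 had 17.5% (95% Wilson interval 8.75% to 32.0%, 40 calls) against 97.2% in IV2 and 97.03% in IV3. At the start of Slc27a3, a fatty acid transporter gene, it had 14.5% (8.28% to 24.1%, 76 calls) against 84.2% and 99.0%. The start of Maz was at 55.6% in IV1 (43.3% to 67.2%, 63 calls) and 98.4% in IV3. Not all starts followed this pattern: Kdm2b was at 98.4% of 61 calls and Grb10 at 100% of 27 calls in IV1, and at Auts2 IV3 was lower still, with 47.9% (34.5% to 61.7%, 48 calls) against 68.4% in IV1 (52.5% to 80.9%, 38 calls) and 93.0% in IV2. Single starts were low in other groups as well, such as that of Atp2c1 with 33.3% of 42 calls in IFC1 and that of Tnpo1 with 40.9% of 22 calls in IFC4. These starts were chosen after their values were seen. The intervals take each call as independent. Several calls in a CpG-dense window can share a read, and reads carry no molecular identifiers. How many molecules gave a value is therefore not known. The intervals can be too narrow even for counting error, and they cover no other error.

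Bins in which a single group was low are given for each group. As a description of the bins that the rule chose, the mean of a group lay 10 or more points below the mean of the other 3 groups in 37 domain bins for IFC, 0 for SO, 1 for SOA and 11 for IV, and below 80% in 12 bins for IFC and in 0 for the other groups. The first of these counts depended on the library left out, with 28 to 54 for IFC, 0 to 5 for SO and 3 to 4 for SOA, and for IV it was 5 without IV1, 49 without IV2 and 78 without IV3, so that without IV2 or IV3 it exceeded the 37 of IFC. When the bins were picked without the group in question, so that the group had no part in the choice, its mean was below 80% in 58 of 10929 bins for IFC, 7 of 10884 for SO, 6 of 10818 for SOA and 10 of 11116 for IV. The counts for IFC stayed between 40 and 69 when each of its libraries was left out in turn, and with all libraries thinned to the shallowest total the counts were 61, 9, 8 and 21. Without IFC4 the count for IFC was 40, and for IV it was 10 without IV1, 23 without IV2 and 26 without IV3, where 2 libraries form the mean. The difference in these counts between groups was not tested, and the 4 IFC libraries were all among the shallower ones.

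**Figure D4:**
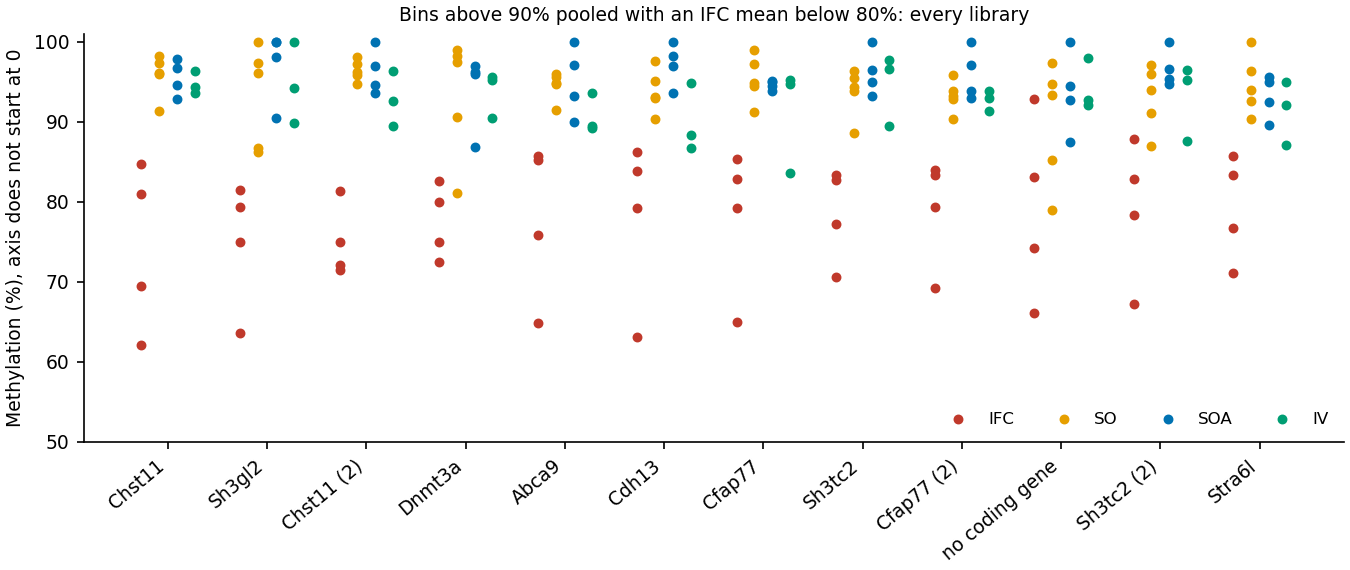
Methylation (percent of calls) of every library in the 12 domain bins with an IFC mean below 80%, which were chosen by this value. The 4 IFC libraries lay below all 12 other libraries in 8 of the bins, and in the other 4 at least 1 library of another group reached down to them. Because a low IFC mean chose the bins, this separation follows largely from the choice and nothing is read from the count.

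Of the 12 bins 11 overlapped a coding gene and 0 held a coding start, where of all domain bins 92.6% overlapped a coding gene and 12.4% held a coding start. They fell in Chst11 (2 bins), Cfap77 (2), Sh3tc2 (2), Sh3gl2, Cdh13, Dnmt3a, Abca9, Stra6l and a region without a coding gene on chromosome 5. Except for the 5 farthest below the other groups, which a rule named, these genes were singled out after their values had been seen. Chst11 encodes a chondroitin sulfotransferase, Sh3gl2 the endocytic protein endophilin, Cdh13 a cadherin without a transmembrane part, Abca9 a transporter of the ABC family and Dnmt3a the de novo methyltransferase of growing oocytes.

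Chst11 (ENSMUSG00000034612) on chromosome 10, from 82985498 to 83195900, held the bins farthest below the other groups. In the bin at chr10:83120000-83129999 the IFC libraries were at 75%, 71.4%, 72.1% and 81.4%, the SO libraries at 97.2%, 98.1%, 94.8%, 95.8% and 96.2%, the SOA libraries at 96.97%, 94.6%, 100% and 93.7%, and the IV libraries at 89.5%, 92.6% and 96.4%. All IFC libraries were below all others, and each value rested on 28 to 189 calls. In the bin at chr10:83180000-83189999 they were at 81.0%, 84.8%, 69.5% and 62.1%, while the other 12 libraries lay between 91.3% and 98.2%.

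Over the whole gene the lower level was not limited to the domain bins. The first 10 measured bins of Chst11, about 100 kb from the start on, were below 10% in the pool, and the IFC mean there was between 2.28% and 9.49%. From 83080000 on the gene was methylated, and IFC was lower in all 12 measured bins of that part, with means of 49.6% to 87.8% against medians of 57.9% to 96.7% in the other libraries. All IFC libraries were below all others in only 6 of the 22 measured bins of the gene. In the bin at 83080000 the IFC libraries ran from 45.3% to 90.7% and the others from 60.5% to 85.2%. The difference from the other 3 groups reached −25.5 points in the bin at 83170000, which was no domain bin. Farp1, which holds most of the longest domain, had IFC means within −2.47 to 3.00 points of the other groups in all its 18 measured bins. Of these, 16 were domain bins, against 5 of 22 in Chst11. Farp1 was named for its high pooled level and Chst11 for its low IFC bins. The contrast of the 2 genes therefore follows largely from these choices, and nothing is read from it.

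**Figure D5:**
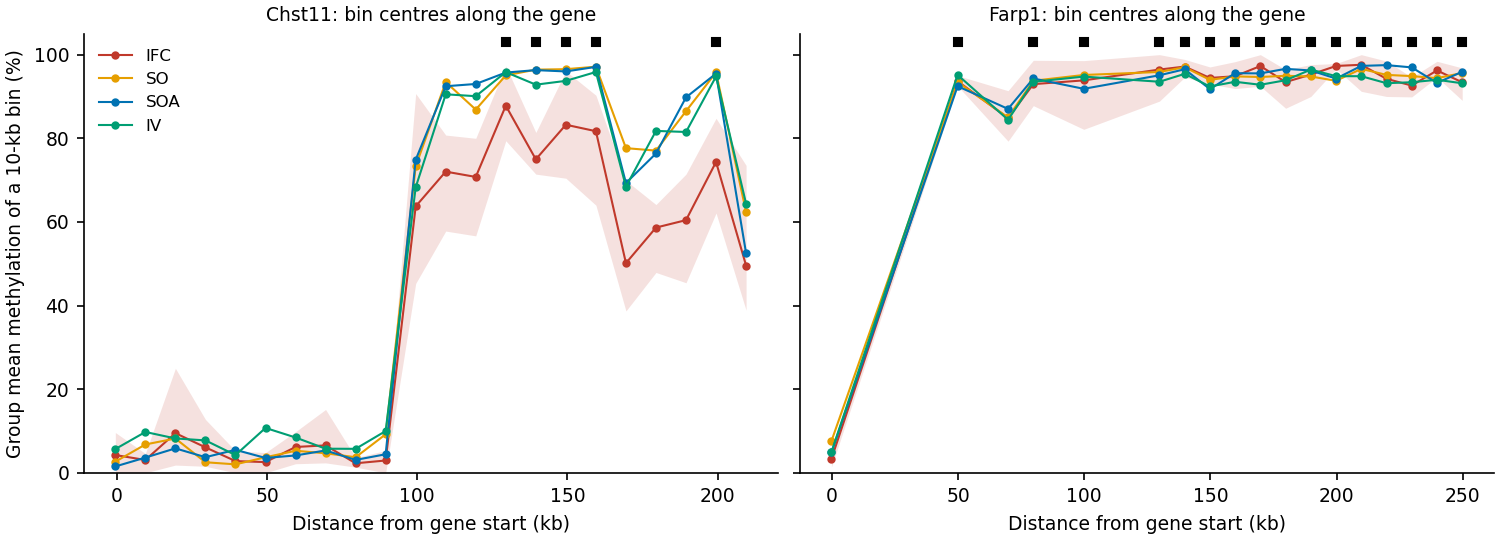
Group mean of methylation (percent of calls) in each measured 10-kb bin along Chst11 and Farp1 against distance in kb, with the range of the 4 IFC libraries shaded, domain bins marked by squares, and lines crossing unmeasured bins. In Chst11 the IFC line ran below the others in all 12 measured bins of the methylated part. In Farp1 the IFC mean differed from the mean of the other groups by −2.47 to 3.00 points. The contrast follows largely from how the 2 genes were chosen, by low IFC bins and by the longest domain.

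The other genes of the set differed in how much of their length was lower in IFC than the mean of the other 3 groups, which is given without a test. The counts include the bins for which the genes were chosen. Over all domain bins the median difference of IFC from the other groups was 0.741 points, with IFC higher. In Cfap77, a gene of cilia and flagella, all 4 domain bins and 10 of 12 measured bins were lower in IFC, with the unmethylated part of the gene at 1.903% to 7.09% in IFC. IFC had the lowest group mean in 6 of the 12, and all its libraries were below all others in 1. In Sh3gl2 the domain bin at 85260000 was at 75%, 63.6%, 81.5% and 79.3% in the IFC libraries and at 86.2% to 100% in the others, and a bin about 110 kb further on, at 79.4% in the pool, differed by −35.9 points between IFC and the mean of the other groups. In Cdh13, over more than 1 Mb, 56 of 76 measured bins were lower in IFC and 2 were domain bins. IFC was below SO in 44 of the 76 and below each of the other group means in 39, while SO was below the mean of the adult groups in 62. In the other genes SO was below that mean in 6 of 6 measured bins of Sh3tc2, 4 of 4 of Sh3gl2 and 4 of 5 of Stra6l. It was so in 6 of 10 of Dnmt3a, 5 of 12 of Cfap77 and 0 of 1 of Abca9. At 118370000 in Cdh13 SO had the lowest mean, at 46.0%, followed by IFC at 62.8%, IV at 89.1% and SOA at 90.3%. In Sh3tc2 all 6 measured bins were lower in IFC, and 2 of them were domain bins. Abca9 had 1 measured bin, and in Stra6l 2 of 3 domain bins were lower in IFC. Dnmt3a was different: of its 4 domain bins only the bin at 3850000 was lower in IFC, at 80%, 75%, 82.6% and 72.4% against 81.0% to 98.9% elsewhere with some overlap, while the other 3 were 0.604, 2.78 and 1.69 points higher.

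Bins were also tested between pairs of groups over all measured bins. A bin was called when the adjusted p of a likelihood-ratio test of a logistic model was under 0.05 (Benjamini-Hochberg over 57035 bins) and the group means differed by 20 or more points. Between IFC and SO 2 domain bins were called, both in Chst11 and lower in IFC, where 1.14% of all measured bins were called. Between SO and SOA 0 were called (1.74% of all), between SOA and IV 0 (0.274%), and between IFC and SOA 3 (3.51%), those in Chst11 and that in Sh3gl2. At an unadjusted p under 0.05, 1143, 1027, 1564 and 1029 domain bins passed in these comparisons, against 20.5%, 24%, 28% and 25.8% of all measured bins. A quasi-binomial F test called 0, 0, 0 and 1 domain bins at 20 points (0%, 0.0824%, 0% and 0.423% of all), and limma 1, 0, 0 and 2 (0.154%, 0.61%, 0% and 1.54%). A bin above 90% in the pool has little room for a difference of 20 points, so that nothing is read from the small counts.

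The calls with a minimum of 10 points are given as a description, since near the upper end of the scale a group that differs can hardly be other than lower. Between IFC and SO 30 domain bins were called, 27 of them lower in IFC (of all measured bins 5.38% were called, 2.95% lower in IFC), and between IFC and SOA 65, of which 61 were lower in IFC (9.87%, and 5.05% lower in IFC). Between SO and SOA 3 were called (6.72%), in Cacng1, Tead1 and a bin without a coding gene on chromosome 10. Tead1, a transcription factor of the Hippo pathway, was at 100%, 97.7%, 94.4%, 95.5% and 91.1% in the SO libraries and at 84.1%, 87.9%, 86.8% and 83.3% in the SOA libraries. Between SOA and IV 21 were called (2.94%), all higher in SOA (1.68% of all). The tests that allow for spread between libraries called fewer at 10 points. For IFC and SO, SO and SOA, SOA and IV, and IFC and SOA, the quasi-binomial F test called 0, 0, 0 and 3 domain bins. Of all measured bins it called 0%, 0.107%, 0% and 0.470%. In the same order limma called 1, 0, 0 and 8 (0.177%, 0.766%, 0% and 1.855% of all). The counts of the likelihood-ratio test depended on the library left out. Between SOA and IV 9 were called without IV1, 72 without IV2, 97 without IV3 and 40 without SOA4. Between IFC and SO 48 were called without IFC1 and 53 without IFC2, and between IFC and SOA 98 without IFC1. Between SO and SOA 16 were called without SOA4, 10 without SOA1, 9 without SOA3, 8 without SO1 or SO3, and 7 without SO4 or SOA2. Skap1 and Chmp4b were among those where all 3 IV libraries were low: Chmp4b, a gene of membrane scission, was at 100%, 100%, 100% and 96.2% in SOA and at 90.2%, 89.7% and 87.0% in IV.

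Bins were also picked on the other 2 groups, so that the groups compared had no part in the choice, although bins this high still leave more room for a lower than for a higher level. Between IFC and SO 24 of 10911 such bins were called at 20 points, 23 of them lower in IFC, where of all measured bins 1.14% were called and 0.747% were lower in IFC. They included the 2 Chst11 bins, with a difference of −21.4 points in each and adjusted p-values of 6.19e-13 and 3.15e-13, and 1 more Chst11 bin. The greatest difference was in a bin at chr7:129810000-129819999 that overlapped no coding gene, where the IFC libraries were at 63.0%, 50%, 43.2% and 43.5% and the SO libraries at 88.0%, 95.7%, 94.5%, 79.4% and 81.7% (adjusted p = 6.22e-12). Ttll7, a tubulin polyglutamylase gene, held 4 of the bins. SO was itself below the mean of the adult groups in all 7 measured bins of Ttll7. The tests that allow for spread between libraries passed fewer of the 24 bins. By limma on the libraries' percentages 5 of the 24 had an adjusted p under 0.05, with 0.0230 for the bin on chromosome 7 and 0.0115 and 0.110 for the 2 Chst11 bins. By the quasi-binomial F test 0 of the 24 passed, with adjusted p-values of 0.281, 0.0821 and 0.287 for these 3 bins.

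The bin called higher in IFC lay in Dok7, an adaptor of the neuromuscular junction, and was low in SO. The SO libraries were at 71.4%, 82.1%, 57.2%, 56.4% and 64.8%, the IFC libraries at 94.7%, 100%, 95.7% and 94.7%, the SOA libraries at 85.3%, 90.2%, 95.2% and 91.7%, and the IV libraries at 91.8%, 93.2% and 87.8%. All SO libraries were below all others. It was also the 1 bin called between SO and SOA (1.74% of all measured bins), with an adjusted p of 4.79e-19, which limma gave as 0.0778. At 82.1% in the pool it was not a domain bin itself.

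Between SOA and IV 2 of 11095 bins picked on IFC and SO were called (0.274% of all measured bins): Mxi1, a repressor of the MYC network, was lower in SOA, with 79.7%, 57.1%, 47.2% and 94.4% in the SOA libraries and 95.8%, 97.1% and 77.4% in IV (adjusted p = 5.06e-04), and Tcp11l2 was higher in SOA, at 83.9% ± 8.28 against 63.7% ± 2.90 (adjusted p = 0.00512). The Mxi1 groups overlapped, and limma gave both an adjusted p of 0.861. Between IFC and SOA 18 of the bins picked on SO and IV were called, 17 of them lower in IFC (of all measured bins 3.51% were called and 2.15% were lower in IFC), and by the quasi-binomial F test 4 and by limma 10 of the 18 passed. The 17 lower bins included 3 bins in Chst11, 2 in Cdh13 and 1 each in Sh3gl2 and Snap91, a gene of synaptic vesicle recycling. The comparisons of IFC with SO and with SOA share the 4 IFC libraries.

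For the other groups, the domain bins farthest below the rest are given by the naming rule and without a test. In SO they were bins of Rgs22, Prdm6, Cacng1, Ccdc162 with Cep57l1, and Fnbp1l with Bcar3, at 82.9% to 87.0% in SO with differences of −9.82 to −8.34 points from the other groups. In SOA they were bins of Aff3, Efcab5, Prim2, 4930562C15Rik and Pde8b, at 82.9% to 84.7%, and the value at 4930562C15Rik came from SOA3 alone, which had 51.9% where the other SOA libraries had 93.8% or more. In IV they were bins of Ube2f, 1700017B05Rik, Slc27a3, Ttll11 and Sufu, at 80.8% to 85.2%. In the first 3 of these, which held coding starts, IV1 was at 57.0%, 63.7% and 56.3% and the other 2 IV libraries at 89.5% or more, while at Sufu, a negative regulator of Hedgehog signalling, IV1 and IV2 were both low with 77.4% and 78.1%.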

How the data were processed

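PBAT libraries of pooled MII oocytes were sequenced, trimmed (Trim Galore 0.4.4, cutadapt 1.9.1 per the labels) and aligned to GRCm38 with Bismark 0.19.0 by the authors, who deposited per library and position the methylated count, the unmethylated count and the percent methylated. The percent column was not used, and percentages were recomputed from the counts.

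Calls were summed over 10-kb bins and 1-kb windows of the 19 autosomes (Python 3.11.15, numpy 2.4.6, pandas 2.3.3, scipy 1.17.1, matplotlib 3.10.9). Genes were those of GENCODE vM21 and sequences those of GRCm38. A gene's bins were those overlapping its body. Lists of genes defined by a family prefix can also catch related genes, such as Rps6k kinases among ribosomal genes.

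Bins were tested with a logistic model of group, compared by likelihood ratio, with Benjamini-Hochberg adjustment over the 57035 measured bins and a minimum of 20 points, after the study's methods, on the groups compared only. Alternatives were a quasi-binomial F test, limma 3.58.1 (R 4.3.3) on library percentages, a replicate block, other call and level limits, and leaving out each library. Scripts were tested on simulated data. Library means were compared by exact permutation. At 20 calls, 19 of them methylated, the 95% Wilson interval of a bin was 76.4% to 99.1%. At the median of 57 calls, 54 of them methylated, it was 85.6% to 98.2%. Wilson intervals take calls as independent and can be too narrow where calls share a read.

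The members and gene lists were chosen with earlier results of these data known. Named were the 10 longest domains, for each group the 5 domain bins farthest below the other groups, for each comparison the called bins with the largest difference, list genes with at least 50% of their bins in domains, and the bins nearest 90%. Others were chosen after their values were seen.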

Additional observations from a re-analysis of the deposited data

Results flagged for a closer look

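A library was singled out where its gap to the nearest other library of its group exceeded Dixon's 95% limit relative to the range of the group. This held for 16 of 102 groups of values (15.7%). The rate of about 1 in 20 that chance gives is no measure for them, since many were bins named for an extreme group mean and the sets of bins overlap. The 3 IV libraries are too few for it.

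Several of these were IFC4 and SO4. IFC4 was lowest of its group in the mean of the domain bins (93.5% against 95.2% to 95.2%), in their CpG-dense windows (94.2% against 95.7% to 95.8%) and in those with a coding start (92.7% against 95.5% to 95.8%), and in the domain bins of Prim2 (88.6% against 91.2% to 91.7%) and Sufu (81.8% against 96.7% to 97.8%). SO4 was lowest of SO in dense windows with a coding start (92.2% against 95.2% to 95.7%), in the Farp1 and Stk24 domain (92.85% against 94.7% to 95.3%) and in the Osbpl10 and Stt3b domain (92.8% against 94.97% to 95.8%), and highest in the bins below 10% (7.41% against 4.31% to 4.65%).

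The others were single bins or domains. SOA2 was high in the Taok3 domain (96.7% against 93.9% to 94.3%) and low in the Dnmt3a bin (86.8% against 96% to 96.97%). SOA3 was low in the bins of Rgs22 (70% against 96.97% to 100%) and 4930562C15Rik (51.9% against 93.8% to 97.1%), and SOA1 in that of Ube2f (89.4% against 95.3% to 96.4%). IFC2 was at 90% in the bin of Fnbp1l and Bcar3 and IFC1 at 93.6% in that of Aff3, where the other IFC libraries were at 100%.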

How the results depend on the processing

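Of 263 values recomputed under alternatives, 202 kept their direction and call, 23 changed sign, 2 passed the threshold and 36 counts moved by over 1.5 times; the causes were not tested. The domain bins numbered 4002 above 95%, 25370 with 10 and 3487 with 30 or more calls per library, and 10906 to 12854 with a library left out; the domains numbered 3122, 12207, 2625 and 6663 to 7487.

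Domain bins called at 20 points between IFC and SO numbered 0 by the quasi-binomial test, 1 by limma, 30 at 10 points, 1 with 30 calls, 24 among bins picked on the other groups, and 1 to 3 with a library left out (1 without IFC4). Between SO and SOA they numbered 3 at 10 points and 1 among bins picked on the other groups, and between SOA and IV 21 and 2, with 0 whichever library was left out. Between IFC and SOA they numbered 1 by the quasi-binomial test, 65 at 10 points, 1 with 30 calls, 18 among bins picked on the other groups, and 2 to 6 with a library left out (6 without IFC1).

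No difference of mean level had a stable sign except that of SOA over IV. IFC minus SO was −0.0365 points on reference CpGs, −0.693 in the shallower libraries, those under 10000000 calls, and −0.289 to 0.558 with a library left out. In dense windows it was −0.0283, −0.632, −0.318 to 0.496, and −0.0223 with the replicate block. SO minus SOA was 0.140 in the shallower libraries and −0.613 to −0.0089 with a library left out, and in dense windows 0.234 and −0.466 to 0.0706. IFC minus SOA was 0.0622 above 95% and −0.424 to 0.254 with a library left out, and in dense windows 0.0732 with 40 CpGs and −0.238 to 0.314. SOA minus IV was 1.46 on reference CpGs and 1.39 in dense windows, both at the smallest p the exact permutation test allows (0.0286), and 0.680 to 2.25 and 0.523 to 2.05 with a library left out (exact p 0.0667 to 0.267). The shallower libraries could not be compared between SOA and IV.

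The bins below 80% in a group, picked without it, numbered 40 to 69 in IFC, 5 to 11 in SO (11 without SO1), 6 to 8 in SOA and 10 to 26 in IV with a library left out, and 21 in IV after thinning, an alternative added after seeing the data as were the others for this count. Domain bins 10 or more points below the other groups numbered 28 to 54 in IFC, 0 to 5 in SO, 3 to 4 in SOA and 5 to 78 in IV with a library left out, also added after seeing the data. Deviations of same-numbered libraries correlated by −0.0120 to 0.103, with the highest value between IFC4 and SO4. The best partner of a library had the same number in most cases, such as SO2 for IFC2, SO4 for IFC4 and SOA4 for SO4. In others it had another number, such as SO1 for IFC3. Calls off the reference CpGs were methylated at 6.54% in IFC1, 6.40% in SO1 and 6.66% in SOA1. They were at 4.60% in IV1 and at 5.64% or less in all libraries of other numbers. Whether same-numbered libraries shared more than a number was not tested, and apart from the replicate block the tests did not allow for it. With the replicate block the number of calls at 20 points did not change, and at 10 points it was 37, 5, 42 and 73. Depth limits the bins, since those with few CpGs were rarely measured.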
